A study of Mus musculus with 2 samples.

Results

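Mir208a, Mir208b, Mir499 and Mir206 are 4 miRNA genes of striated muscle, found by their symbols among the 2202 miRNA genes of the count tables. Their own-strand reads were followed in an adrenal gland data set. Small RNA libraries with an insert range below 30 in the labels were made from total RNA of the adrenal gland. The mice were B6CASTF1/J females, an F1 cross between the C57BL/6J and CAST/EiJ strains, aged 18 to 20 months, and carried no treatment or engineered allele in the labels. There was 1 group of 2 libraries, called biological replicates 1 and 2, with 2590051 and 2291030 own-strand counts in miRNA genes. They are separate tissue samples. The labels number their females differently but list both under 1 donor record, so it is not settled whether they came from separate animals. A spread or difference between the libraries is one between these samples, which may be technical. The 4 genes were picked because their counts differed between the libraries. Their difference is therefore described without a test.

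As background, Mir208a, Mir208b and Mir499 are carried in introns of genes for myosin heavy chains, the motor proteins of the muscle thick filament, and are processed from the host transcript. Myh6 encodes the alpha chain of heart muscle, Myh7 the beta chain of heart and slow skeletal muscle, and Myh7b a related slow chain. The products of these genes belong to a known network that favours slow muscle gene programs. Mir206 belongs to the miR-1 family, is best known from skeletal muscle and its stem cells, and lies beside Mir133b. A mature miRNA finds its target messages mainly through its seed, bases 2 to 8.

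The mature arms best known as the active ones are shown with the seed in capitals, because the seed separates the genes into groups. All 4 genes were matched in RefSeq (GRCm38.p6). The sequences lie on the minus strand at chr14:54949072-54949093 and chr14:54975710-54975731, and on the plus strand at chr2:155622893-155622913 and chr1:20679055-20679076.
miR-208a-3p: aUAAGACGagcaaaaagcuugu
miR-208b-3p: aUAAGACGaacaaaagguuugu
miR-499-5p: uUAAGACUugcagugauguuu
miR-206-3p: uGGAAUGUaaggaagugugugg
The miR-208a-3p and miR-208b-3p arms carry the same seed and differ at 3 of 22 bases, G10A, A16G and C18U, counted from the 5′ end with the miR-208a-3p base first. The miR-499-5p arm matches both of them for 6 bases in a row from base 2 and then departs at the last base of the seed. The miR-206-3p arm has an unrelated seed. In the RefSeq table, which is not complete, the seed of miR-206-3p was also carried by Mir6349 and Mir6382. The miR-1 relatives of Mir206 are described with the other striated muscle genes. The other arms, miR-208a-5p and miR-208b-5p, shared theirs with Mir6415. Mir6349, Mir6382 and Mir6415 were at 0 counts in both libraries, which allows up to 3 counts, or 1.16 and 1.31 CPM (counts per 1000000 own-strand counts). A count takes in both arms of a hairpin.

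The whole hairpins are less alike than the mature arms. Aligned end to end, Mir208a and Mir208b were identical at 58 of 87 aligned positions (66.7%), Mir208b and Mir499 at 51 of 85 (60.0%), and Mir208a and Mir499 at 48 of 99 (48.5%). Mir206 was identical to the other genes at 47.9% to 51.8% of positions. No 18-base word of any of the 4 hairpins occurred in another annotated miRNA hairpin. Reads of Mir208a and Mir208b can therefore be told apart among miRNA genes, though the rest of the genome was not searched.

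All positions are on mm10 with GENCODE M21. Mir208a (ENSMUSG00000065432.1) lies at chr14:54949060-54949142, on the minus strand, in intron 29 of the 39-exon Myh6 transcript, 195 bases after one exon and 264 before the next. Mir208b (ENSMUSG00000077928.1) lies at chr14:54975700-54975776, also on the minus strand, in intron 31 of the 41-exon Myh7 transcript, 102 and 282 bases from its flanking exons. The hairpins of this tandem pair are 26557 bases apart. Mir499 (ENSMUSG00000076312.1) lies at chr2:155622880-155622958, on the plus strand, in intron 19 of the 42-exon Myh7b transcript, 158 and 244 bases from its flanking exons. The 3 introns are short, with 542, 461 and 481 bases. Mir206 (ENSMUSG00000065559.1) lies at chr1:20679010-20679082 on the plus strand, at the long noncoding RNA gene Gm28653. It is in intron 2 of one Gm28653 transcript and overlaps the single exon of the other, whose annotated start lies 13 bases inside the hairpin.

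**Figure D1:**
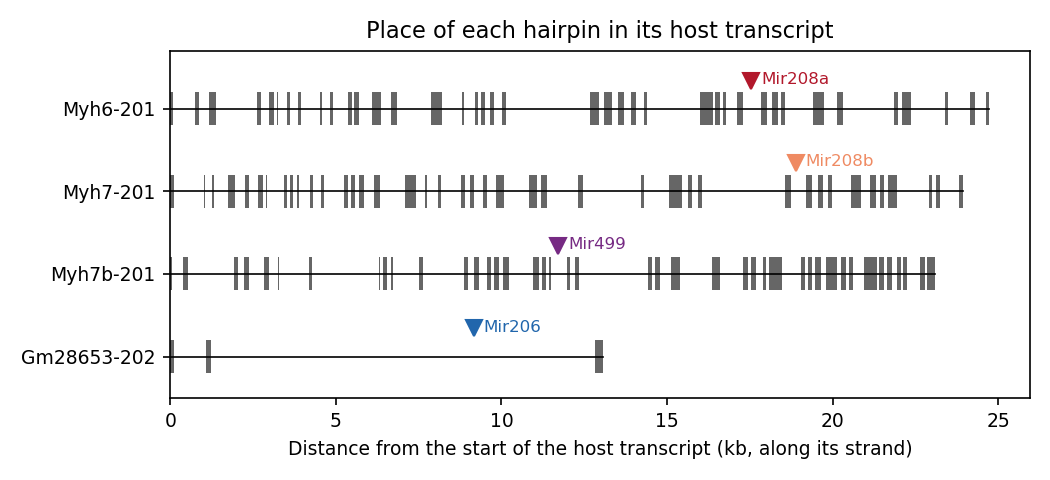
Exons (grey boxes) and introns (line) of one transcript of each host gene, drawn by distance in kb from the transcript's start along its strand, with a triangle at each hairpin. The myosin-gene hairpins sit in short introns, and Mir206 sits in the long second intron of the multi-exon Gm28653 transcript.

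In replicate 1 the 4 genes were all plainly detected, and in replicate 2 only Mir206 was. Mir208a had 231 own-strand counts in replicate 1 and 0 in replicate 2. This is 89.2 CPM (exact Poisson 95% interval 78.1 to 101.5) against a limit of 1.31 CPM. Set against the limit of 3 counts in replicate 2, Mir208a was at least 66.4-fold higher in replicate 1. With the counting error of both libraries taken in, the bound was lower, at 53.5-fold (exact conditional 95% interval). Its host Myh6 is the main myosin heavy chain gene of adult mouse heart.

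Mir208b, the product of Myh7, had 157 counts in replicate 1 and 1 in replicate 2, which is 60.6 CPM (51.5 to 70.9) and 0.436 CPM (0.0111 to 2.43). The ratio was 135-fold with an interval of 23.9 to 5378, wide because it rests on a single read in replicate 2. Mir499, the product of Myh7b, had 420 and 3 counts, or 162 CPM (147 to 178) and 1.31 CPM (0.270 to 3.83). Its ratio was 121-fold (41.0 to 587). For all 3 myosin-gene miRNAs replicate 2 was near or at the level of no reads, which is the pattern they were chosen for. Differences between these libraries were common: in an exact conditional binomial test of their reads, 62.7% of the 367 miRNAs tested differed, 32.4% being higher in replicate 1 and 30.2% higher in replicate 2.

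Mir206, the skeletal muscle miRNA, had 737 counts in replicate 1 and 182 in replicate 2, or 285 CPM (264 to 306) and 79.4 CPM (68.3 to 91.9). It was 3.49-fold higher in replicate 1 (interval 2.96 to 4.13) and was far above the limit of 3 counts in replicate 2. Its interval of ratios lay wholly below those of Mir208a, Mir208b and Mir499. All intervals hold counting error alone, as reads copied in PCR do not each stand for a molecule. In bulk tissue, fewer cells of a type and less RNA per cell cannot be told apart.

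**Figure D2:**
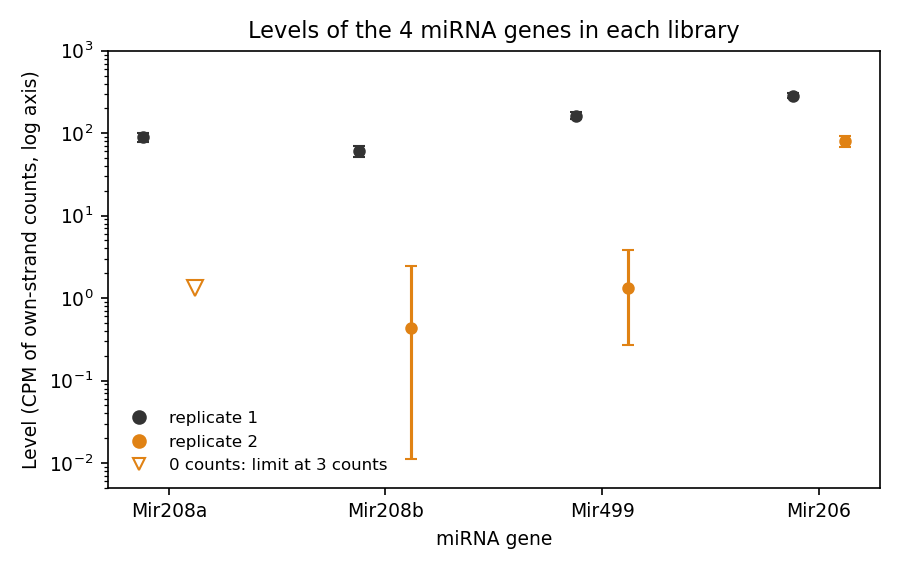
Level in CPM (log axis) of each gene in replicate 1 (black) and replicate 2 (orange), with exact Poisson 95% intervals; the open triangle marks the limit of 3 counts for Mir208a, which had 0 counts. The myosin-gene miRNAs lie between 60.6 and 162 CPM in replicate 1 and at or below 1.31 CPM in replicate 2, and Mir206 lies at 285 and 79.4 CPM.

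The order of levels was the same in both libraries for the genes that had reads. Over both libraries Mir206 averaged 182 ± 145 CPM, Mir499 81.7 ± 114 CPM, Mir208a 44.6 ± 63.1 CPM and Mir208b 30.5 ± 42.6 CPM (SD, n = 2 each). No neighbours in this order differed by more than their spread over the libraries. Within replicate 1, where the 4 Poisson intervals did not overlap, the order was Mir206, Mir499, Mir208a and Mir208b, with 136th, 164th, 192nd and 213th place among all genes. It was the same per base of hairpin, at 3.90, 2.05, 1.07 and 0.787 CPM per base. In replicate 2 Mir206 took 191st place, and the intervals of Mir499, Mir208b and Mir208a overlapped one another. By mean level, Mir206 stood between Mir196b and Mirlet7a-2, Mir499 between Mir3068 and Mir138-1, and Mir208a between Mir3099 and Mir677. Mir208b stood between Mir184 and the entry n-TSaga9. These 8 genes had log2 ratios of replicate 2 over replicate 1 from -1.11 to 0.77, against -1.80 for Mir206 and -6.54 for Mir208b.

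The make-up of the counts of the 4 genes differed between the libraries. The genes were picked by these same counts, so the shares are a description. They do not cover miR-1 and miR-133, which could not be measured. In replicate 1 the myosin-gene miRNAs gave 808 of the 1545 counts of the 4 genes, or 52.3% (exact Clopper-Pearson 95% interval 49.8 to 54.8). In replicate 2 they gave 4 of 186, or 2.15% (0.589 to 5.41), and Mir206 gave the other 97.8% (94.6 to 99.4). Among the 808 myosin-gene counts of replicate 1, Mir499 held 52.0% (48.5 to 55.5), Mir208a 28.6% (25.5 to 31.8) and Mir208b 19.4% (16.8 to 22.3). The Myh6 product thus gave 1.47 counts for each count of the Myh7 product. With 4 counts in replicate 2, the same shares were not measurable there. All 4 genes were a small part of the profile, 0.0597% of own-strand counts in replicate 1 and 0.00812% in replicate 2.

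**Figure D3:**
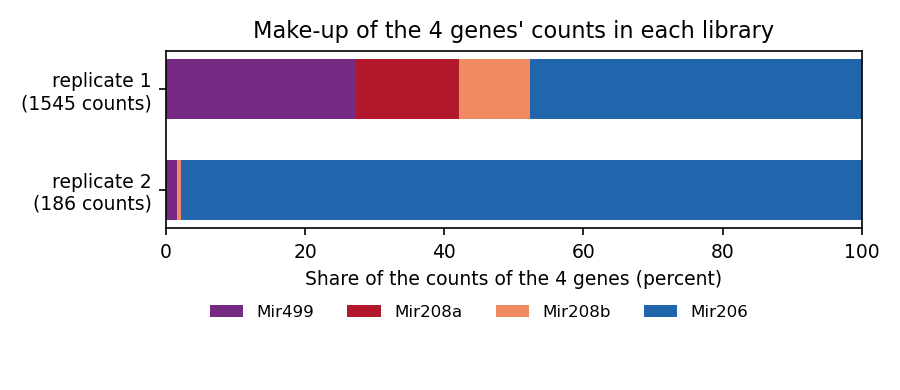
Share in percent of each gene in the counts of the 4 genes, 1 bar per library. Mir206 (blue) gives 47.7% of the counts in replicate 1 and 97.8% in replicate 2.

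Reads of the 4 genes came from one strand. Opposite-strand counts were 0 for each gene in both libraries, against 1545 and 186 own-strand counts, and ignoring strand returned the same counts.

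Against the whole table, the myosin-gene miRNAs stood at the extreme of the difference between the libraries. Of 367 miRNAs tested, with a summed count of at least 20, Mir208a, Mir499 and Mir208b had the 3 lowest log2 ratios and Mir206 the 15th lowest. The median of all tested was 0.01 and the median absolute log2 ratio 0.46. No other tested gene was below -5. Of 234 genes with at least 100 counts in replicate 1, 3 had at most 3 counts in replicate 2, and these were Mir208a, Mir208b and Mir499. Of 226 genes with at least 100 counts in replicate 2, 0 had at most 3 counts in replicate 1. These limits were chosen after the values were seen. The members were chosen by this contrast, so their place in it is a description and supports nothing. With library scaling factors taken from all genes, an alternative chosen after seeing the data, 62.1% of the calls were higher in replicate 1, against 51.7% in the main setting.

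**Figure D4:**
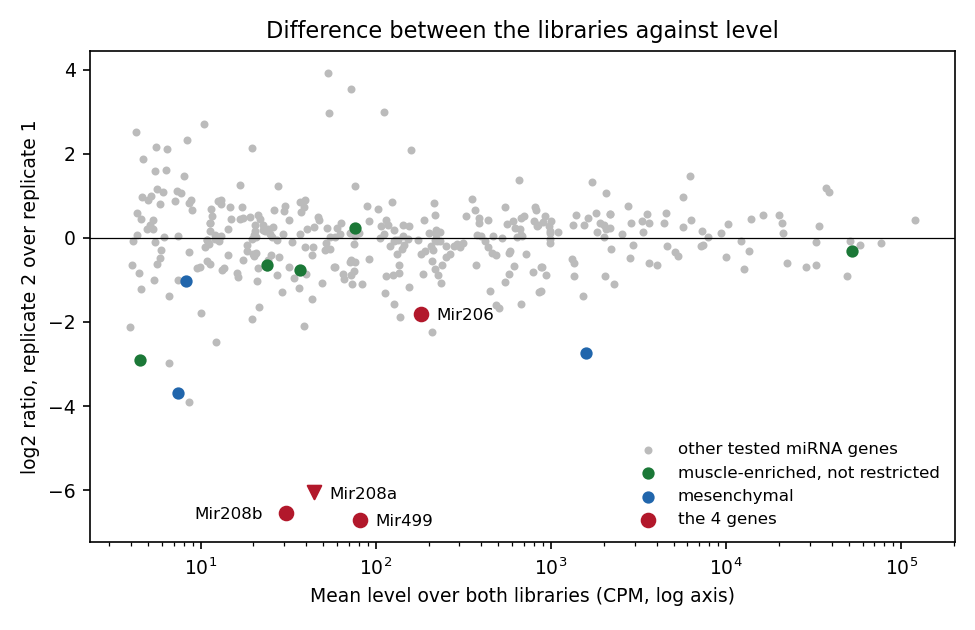
log2 ratio of replicate 2 over replicate 1 against mean level in CPM (log axis) for the 367 tested miRNA genes, with the 4 genes in red, muscle-enriched genes in green and mesenchymal genes in blue. Mir208a (triangle) is drawn at its bound against 3 counts, and the 3 myosin-gene miRNAs lie apart from all other points.

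The other genes of striated muscle gave almost no countable reads. Mir1a-1, Mir1a-2, Mir1b, Mir133a-1, Mir133a-2, Mir133b and Mir133c make the core muscle miRNAs miR-1 and miR-133 and their relatives. Of these 7 genes, 5 were at 0 in both libraries, Mir1b had 9 and 2 counts and Mir1a-2 had 3 and 0. No gene of this list reached the minimum for the test. The 2 with reads were both higher in replicate 1, at log2 ratios of -1.74 for Mir1b and -2.72 for Mir1a-2. Their intervals were wide, with upper ends of 0.317 and 1.49. With no minimum, these 2 were tested by edgeR's exact binomial test, and 0 passed before or after adjustment. The 3 reads of Mir1a-2 could not have passed in any split, and those of Mir1b were few. This outcome therefore does not show whether they differed. Mir133b, which lies 3686 bases downstream of Mir206 on the same strand, was among those at 0.

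A count of 0 does not give the level of most of these genes. Mir1a-1 and Mir1a-2 share 18-base words with each other, and Mir133a-1, Mir133a-2 and Mir133b share them among themselves. Reads that align to several places, 2357429 in replicate 1 and 1958627 in replicate 2, were not counted in any gene. The 4 members share no such word, which is a difference between them and these 5 genes in how they could be counted. Mir1b and Mir133c share no such word either, and Mir1b had 9 and 2 counts and Mir133c 0 in both libraries. How much miR-1 or miR-133 accompanied Mir206 or the myosin-gene miRNAs was therefore not measurable here.

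Of the genes enriched in muscle but found elsewhere too, 4 of 5 tested were higher in replicate 1, against 32.4% of all tested miRNAs, and none in replicate 2. Their median log2 ratio was -0.65, against 0.01 for all tested. Neuroendocrine genes, with 4 of 4 tested higher in replicate 1, had a median of -0.52, so the pattern was not particular to muscle. The muscle-enriched list summed to 58609 and 46063 CPM, a ratio of 1.27, against 1.40 for the smooth muscle list. Mir490, encoded within Chrm2, the muscarinic receptor gene of heart and smooth muscle, had 21 and 2 counts (log2 ratio -2.91, interval -6.31 to -1.15, adjusted p = 0.000401, exact test). Mir378c with 122 and 62 counts and Mir378d with 77 and 42 had log2 ratios of -0.76 and -0.65, and the abundant Mir378a had -0.31. These Mir378 genes make near-identical products, so their split between genes is uncertain and their calls are not independent of one another. Mir486, made in both muscle and red blood cells, had 183 and 187 counts, a log2 ratio of 0.24 that missed the threshold (adjusted p = 0.155, exact test).

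Markers of other cell types also differed between the libraries, and their counts stand beside a background of 32.4% of all tested miRNAs for replicate 1 and 30.2% for replicate 2. The mesenchymal list (Mir199a-1, Mir199a-2, Mir199b and Mir214) summed to 2806 CPM in replicate 1 and 413 in replicate 2, with 3 of 3 tested genes higher in replicate 1. Nearly all of that counted sum was Mir214, at 2780 and 407 CPM. Shared words were not checked for the Mir199 genes, and reads that align to several places were not counted. The low counts of the Mir199 genes may therefore understate their levels. The endothelial list summed to 64764 and 33414 CPM, with 2 of 2 higher in replicate 1 (Mir126a and Mir126b, which overlap on opposite strands), and the erythroid list to 902 and 490.2 CPM, with 2 of 3. The epithelial list went the other way, at 43.6 and 249 CPM, with 3 of 4 tested genes higher in replicate 2. Their part in the difference of the muscle miRNAs was not tested.

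Other lists were closer between the libraries. Smooth muscle miRNAs summed to 28442 and 20279 CPM, with Mir143 higher in replicate 1 (log2 ratio -0.59) and Mir145a higher in replicate 2 (1.07). Brown adipose genes summed to 3715 and 3206 CPM and split 2 to 1 between replicates 1 and 2 among 4 tested. Leukocyte genes summed to 1390 and 1353 CPM with 1 of 4 higher in each, and kidney genes to 7832 and 6711 CPM with 2 of 4 higher in replicate 1. The liver miRNA Mir122 was at 622 and 702 CPM and higher in replicate 2. Neuroendocrine genes, listed for the adrenal medulla, summed to 66107 and 56588 CPM with 4 of 4 higher in replicate 1, led by Mir375 at 62443 and 54040 CPM. These markers were abundant in both libraries, and no list held a miRNA specific to the adrenal cortex.

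**Figure D5:**
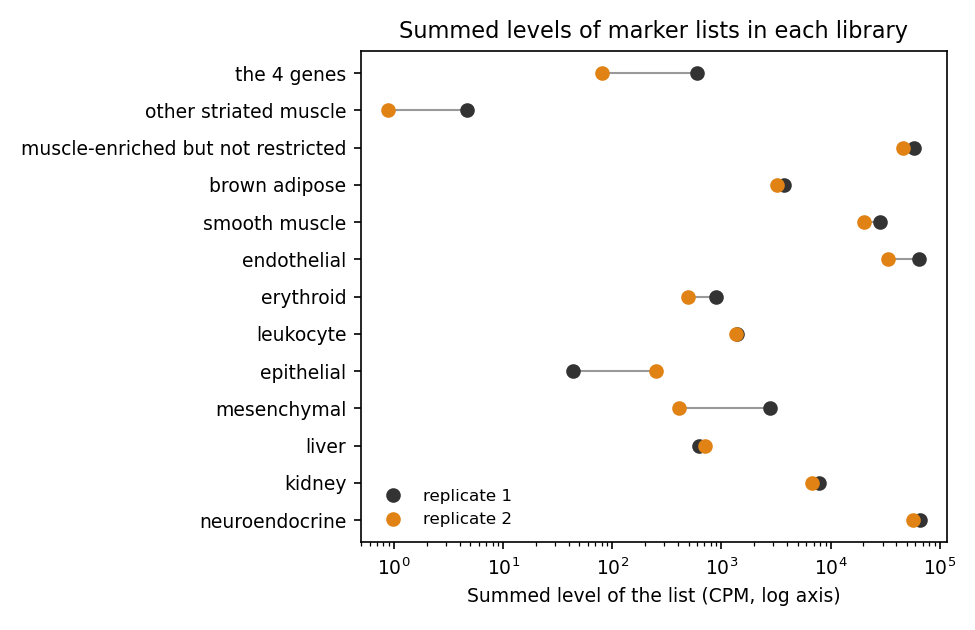
Summed level in CPM (log axis) of the 4 genes and of 12 marker lists in replicate 1 (black) and replicate 2 (orange). The 4 genes sum to 597 and 81.2 CPM, and the mesenchymal list sums to 2806 and 413 CPM.

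The genes whose pattern over the 2 libraries was most like the members were taken as the 5 others with the lowest log2 ratio among those with a summed count of at least 100. They were Mir214 at -2.73, Mir152 at -2.24, Mir340 at -2.09, Mir6236 at -1.88 and Mir101b at -1.68. Mir340, in Rnf130, had 165 and 33 counts and Mir101b, in Rcl1, had 2014 and 542. All of these had at least 33 counts in replicate 2. Mir214 lay below Mir206, with an interval of -2.83 to -2.64, against -1.80 for Mir206 with an interval of -2.05 to -1.57. The intervals of the others overlapped that of Mir206, and none of these 5 came near the ratios of the myosin-gene miRNAs. The minimum of 100 left out tested genes with fewer counts and lower ratios than Mir214. Among those left out were Mir199a-2 at -3.68, Mir126b at -2.97 and Mir490 at -2.91. Their intervals reached down to -7.06, -5.51 and -6.31. Each thus overlapped the intervals of Mir208b and Mir499, whose upper ends were -4.58 and -5.36.

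The promoters of the 3 myosin genes are shown because their miRNAs were all higher in replicate 1. Each window runs from 250 bases before to 50 after the RefSeq start (GRCm38.p6). Capitals mark every match, on either strand, to CATTCC (bound by TEAD factors), CANNTG (the E-box), GATAA (bound by GATA factors) or TATAA (the TATA box). The windows are chr14:54966558-54966857 on the minus strand, chr14:54994577-54994876 on the minus strand and chr2:155610993-155611292 on the plus strand.
Myh6: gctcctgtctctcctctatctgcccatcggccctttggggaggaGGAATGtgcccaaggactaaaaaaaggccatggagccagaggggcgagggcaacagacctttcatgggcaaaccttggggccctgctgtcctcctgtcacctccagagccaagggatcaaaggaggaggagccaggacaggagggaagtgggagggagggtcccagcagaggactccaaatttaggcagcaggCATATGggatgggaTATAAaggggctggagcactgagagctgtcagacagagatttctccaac
Myh7: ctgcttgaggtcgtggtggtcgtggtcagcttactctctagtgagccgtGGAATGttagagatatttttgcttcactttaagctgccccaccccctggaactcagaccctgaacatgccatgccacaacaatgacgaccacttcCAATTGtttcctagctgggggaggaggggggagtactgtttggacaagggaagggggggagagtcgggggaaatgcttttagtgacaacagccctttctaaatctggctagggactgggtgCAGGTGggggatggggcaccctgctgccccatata
Myh7b: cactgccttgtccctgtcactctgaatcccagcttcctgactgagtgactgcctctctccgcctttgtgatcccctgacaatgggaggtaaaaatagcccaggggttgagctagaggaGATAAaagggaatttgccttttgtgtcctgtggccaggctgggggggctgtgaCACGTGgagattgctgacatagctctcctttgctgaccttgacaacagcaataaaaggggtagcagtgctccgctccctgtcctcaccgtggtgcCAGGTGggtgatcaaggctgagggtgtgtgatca
Myh6 and Myh7 each held 1 match to CATTCC, on the opposite strand, starting 206 and 201 bases before the start site. Such a match was in 14.7% of 32807 promoter windows of that length. Each of the 3 windows held an E-box, as did 72.3% of all windows, with CATATG in Myh6, CAATTG and CAGGTG in Myh7, and CACGTG and CAGGTG in Myh7b. GATAA occurred in Myh7b only of the 3 (25.4% of all windows) and TATAA in Myh6 only (24.9%). The TATAA match of Myh6 began 1 base after the RefSeq start site, not before it. No match to the MEF2 or CArG box motifs lay in these windows, where 0.558% and 1.63% of all windows held one. No matches overlapped. A second RefSeq start of Myh7, 77 bases downstream, has its own window, which held the same E-boxes and no CATTCC.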

How the data were processed

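The deposited files, 1 per library, hold raw read counts of miRNA genes. Their 3 columns count either strand, the gene's own strand and the opposite strand, as read from the values. Build mm10 and annotation GENCODE M21 are given by the deposited notes. No aligner is named: it is not given in the sources used here. That build is of C57BL/6J, and loss of reads from CAST/EiJ alleles was not tested. The first 4 rows count reads of no gene and were left out; of 9807567 and 6993665 reads, 40.6% and 29.8% were unmapped and 24.0% and 28.0% aligned to several places.

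CPM are counts per 1000000 own-strand counts (2590051 and 2291030). Ratios used TMM factors of edgeR 4.0.16, 1.01 and 0.987, from genes with a summed count of at least 20. These genes were tested with edgeR's two-sided exact conditional binomial test and Benjamini-Hochberg adjustment (threshold 0.05). This compares 2 libraries, with counting error only. The quasi-likelihood test could not be fitted, as 1 library on each side leaves no residual degrees of freedom. Log2 ratios set replicate 2 over replicate 1 after adding a prior count of 0.5. Scripts were tested on simulated data. DESeq2 1.42.0 size factors, total counts, other minimum and prior counts, all reads as library size, strand ignored and each library left out were alternatives.

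The members and lists were chosen with earlier results of these data known. Genes named are the members, the 12 marker lists (1 listed symbol, Mir486b, had no match), miRNA genes within 50 kb of a member or sharing a seed with one, the 5 with the most similar ratios and the neighbours in level.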

Additional observations from a re-analysis of the deposited data

Results flagged for a closer look

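Reads lay outside a gene's own-strand counts in places that bear on muscle miRNAs. Reads that align to several places numbered 2357429 in replicate 1 and 1958627 in replicate 2, and no gene received them. On the opposite strand Mir1a-2 had 9 counts in replicate 1, equal to the 9 own-strand counts of Mir1b, which overlaps it. Mir486 had 13 opposite-strand counts in replicate 1 and 13 in replicate 2. Opposite-strand counts were flagged where they exceeded 3.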

How the results depend on the processing

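The 4 members stayed higher in replicate 1 under DESeq2 size factors, total counts, a prior count of 5, strand ignored and scaling factors from all genes. The log2 ratio of Mir208a, which has 0 counts in replicate 2 and so depends on the prior count, went from -8.75 to -5.46 with a prior count of 5. That of Mir206 ranged from -1.93 to -1.78. Scaling factors from all genes, chosen after seeing the data, shifted the median log2 ratio of all tested miRNAs by -0.13. Differing miRNAs numbered 180 of 229 tested (minimum summed count 200) to 228 of 724 (no minimum) over the alternatives, against 230 of 367. The shares of tested miRNAs that differed, 62.7% in the main setting and 32.4% for those higher in replicate 1, therefore depend on the minimum count. None of the other striated muscle genes had enough counts to be tested in any setting with a minimum count, so no result was possible there. With no minimum, 2 were tested and 0 passed, on counts too few to show whether they differed. Mean levels rest on replicate 1: without replicate 1 those of Mir208a, Mir208b, Mir499 and Mir206 were 0, 0.436, 1.31 and 79.4 CPM, and without replicate 2 they were 89.2, 60.6, 162 and 285 CPM. With all reads as the library size they were 11.8, 8.08, 21.6 and 50.6 reads per 1000000. No paired analysis was possible because the 2 libraries form 1 group. The libraries were of similar depth, at 2590051 and 2291030 own-strand counts, and the 4 myosin-gene reads of replicate 2 were too few to give each gene's share there.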
